A study of Homo sapiens with 9 samples.

Results

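The genes described here are 49 protein-coding genes at 120 to 134 Mb of chromosome 10, the end of its long arm, of 58051 genes in the count table. They were chosen by position and because genes of this window had been seen to sit higher in p53 KO cells, so the comparisons of p53 KO cells with parental and with Ctrl cells are given for them as a description. Calls at an adjusted p of 0.05 are counted in these comparisons, but no p is given for a member and nothing is supported with them. In GRCh38 the first member, WDR11, starts at base 120851305 and the last, MTG1, ends at base 133422520. Of the 49 members, 41 had enough reads to be tested, among 14513 genes in all, and 8 did not. The filter kept a gene that reached the minimum in enough libraries for 1 group, so a member of low level could pass through its highest group alone.

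A431 is an established line of human epidermoid carcinoma that endogenously expresses mutant p53, and the study compared the RNA of A431 cells with and without p53. Each of the 3 groups had 3 libraries. Parental (mutp53) cells were unedited, Ctrl (mutp53) cells had received a CRISPR empty vector and keep the mutant p53, and p53 KO cells had received a CRISPR construct directed against p53. All were kept in DMEM with 10% FBS, raised from single colonies and collected 48 hours after settling. The difference between groups therefore holds loss of p53 and any difference between colonies, and these cannot be told apart. The labels do not say that libraries of a group came from separate cultures, so p-values measure the spread between these libraries, which may be technical.

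Library totals ran from 19783778 to 29840452 counts. A floor of 3 counts corresponded to 0.101 to 0.153 CPM (counts scaled to an effective library size of 1000000). Among keratinocyte markers KRT5, SFN, EGFR and DSP were abundant in every library, but KRT14 had at most 13 counts. COL3A1, DCN, PTPRC and CD3E, markers of fibroblasts and blood cells, had 0 counts in all 9 libraries, whereas COL1A1 had 47 to 114. Ctrl replicate 1 and p53 KO replicate 3 stood apart from the other libraries of their groups. Over 10548 genes their deviations from the group mean fell with exon length (Spearman's rho -0.53 and -0.49), against -0.21 to 0.50 in the other 7 libraries.

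The members share a place and no pathway. FGFR2 is a receptor tyrosine kinase for fibroblast growth factors with splice forms of epithelium and of mesenchyme. BUB3 acts in the spindle checkpoint, and MKI67 encodes Ki-67, the antigen used to count cycling cells. MGMT removes alkyl groups from guanine in DNA and is silent in many tumour lines. BNIP3 is a mitochondrial protein of mitophagy induced in hypoxia, and ADAM8 is a membrane metalloprotease of the cell surface.

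Promoters of 4 members are shown because the RNA of these genes followed different patterns across the 3 groups. They are the 250 bases before the gene start in RefSeq (GRCh38.p14), read 5′ to 3′ on the strand of the gene. The motif GGGCGG (the GC box, on either strand) is in capitals. The RefSeq start can differ from the gene positions used elsewhere here, and all 4 windows run past the start in those positions. That start is base 120851305 for WDR11, as given above, and base 121598458 for FGFR2. It is base 131981967 for BNIP3 and base 133358025 for FUOM. WDR11 (chr10:120851112-120851361, plus strand) was higher in p53 KO cells than in both others. FGFR2 (chr10:121598445-121598694, minus strand) and BNIP3 (chr10:131981924-131982173, minus strand) were highest in parental cells. FUOM (chr10:133358020-133358269, minus strand) was higher in Ctrl and in p53 KO cells than in parental cells.
WDR11: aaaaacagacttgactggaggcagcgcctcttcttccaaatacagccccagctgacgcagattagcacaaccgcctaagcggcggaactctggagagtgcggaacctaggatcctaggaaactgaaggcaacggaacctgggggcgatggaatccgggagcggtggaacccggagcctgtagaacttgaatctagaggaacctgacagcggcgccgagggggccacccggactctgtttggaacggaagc
FGFR2: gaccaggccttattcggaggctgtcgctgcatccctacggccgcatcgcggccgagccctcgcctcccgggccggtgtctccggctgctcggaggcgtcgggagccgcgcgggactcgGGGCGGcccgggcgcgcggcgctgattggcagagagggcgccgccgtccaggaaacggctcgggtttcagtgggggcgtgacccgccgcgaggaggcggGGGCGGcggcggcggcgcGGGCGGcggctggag
BNIP3: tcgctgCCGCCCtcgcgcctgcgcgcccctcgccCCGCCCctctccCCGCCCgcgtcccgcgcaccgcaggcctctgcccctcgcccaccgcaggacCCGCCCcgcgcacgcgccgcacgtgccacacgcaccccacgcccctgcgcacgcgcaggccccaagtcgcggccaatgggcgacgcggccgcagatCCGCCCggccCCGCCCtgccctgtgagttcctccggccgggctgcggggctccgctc
FUOM: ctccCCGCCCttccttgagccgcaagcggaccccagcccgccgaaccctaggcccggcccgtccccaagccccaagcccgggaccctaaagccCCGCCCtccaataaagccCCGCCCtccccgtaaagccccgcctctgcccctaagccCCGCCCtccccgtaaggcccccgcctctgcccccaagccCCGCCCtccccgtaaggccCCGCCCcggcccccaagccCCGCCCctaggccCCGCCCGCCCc
The WDR11 window held no GC box, whereas those of FGFR2, BNIP3 and FUOM held 3, 6 and 9. Among other members higher in p53 KO cells than in both others, the windows of ECHS1, OAT and CTBP2 held 5, 4 and 2. Those of NSMCE4A and ZRANB1, also higher than in both, held 0. A link between GC boxes and the pattern of the RNA was not tested.

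Of the 49 members, 41 had a promoter in the RefSeq table. These are not the 41 tested members, since they include the untested MGMT and HTRA1 and lack BUB3 and BCCIP. All members code for protein, and the promoters set beside them were not matched by gene type or level. A GC box lay in 28 of these 41 (68.3%), against 42.6% of all 35116 promoters of the table. The median number of CpG in the 250 bases was 23 in the members and 11 in all promoters, and the median GC content was 69.6% and 58%. ACGTG, the core of the hypoxia response element, was found on either strand in 5 members (12.2%), namely ADAM12, BNIP3, CHST15, DHX32 and ZNF511, against 18.5% of all promoters. TATAAA was found on either strand in 4 members (9.76%), against 10.7% of all promoters. The full p53 site, a pair of half-sites at most 13 bases apart, was found in 0 of 41 members and in 0.0256% of all promoters, and the p53 half-site in LHPP alone (2.44%), against 5.57%. These letters describe the windows only and no binding was measured.

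Most members were moderately higher in p53 KO cells than in both mutp53 groups. Over the 41 tested members the log2 fold change had a median of 0.51 against parental cells (1.42-fold, quartiles 0.40 and 0.62) and 0.58 against Ctrl cells (1.49-fold, quartiles 0.39 and 0.74). Over all genes tested both medians were 0.01. The log2 fold change was above 0 in 37 members (90.2%) against parental cells, in 39 (95.1%) against Ctrl cells and in 36 against both. It was above 0 in 50.8% of all genes tested in either comparison. Among long arm genes before WDR11 it was above 0 in 93.0% against parental and 89.1% against Ctrl cells. The share of all genes above 0 against both was not counted. None passed 1.5 on the log2 scale in any comparison. Few genes did: of all 14513 tested, 179 were called higher and 104 lower past 1.5 against parental cells, and 316 and 161 against Ctrl cells. In these bulk samples of a cell line, a change in every cell and a larger change in some of the cells cannot be told apart.

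Against parental cells 30 members were called higher (adjusted p of at most 0.05), 2 lower and 9 neither, beside 9.77% of all genes tested called higher and 8.36% called lower. Against Ctrl cells 31 were called higher, 1 lower and 9 neither, beside 15% called higher and 14.2% called lower among all genes. The members were chosen on these contrasts, so nothing is read from these counts. Higher calls against both mutp53 groups were made for 25 members, and 5 had a higher call against neither. The shares of all genes tested with such joint calls were not counted, so nothing is read from these numbers either. The 2 comparisons share the p53 KO libraries. In 29 members all 3 p53 KO libraries lay above all 6 others, as they did in 11.9% of all genes tested. In 1 member, PAOX, they lay below all 6, as in 10.1% of all genes.

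**Figure D1:**
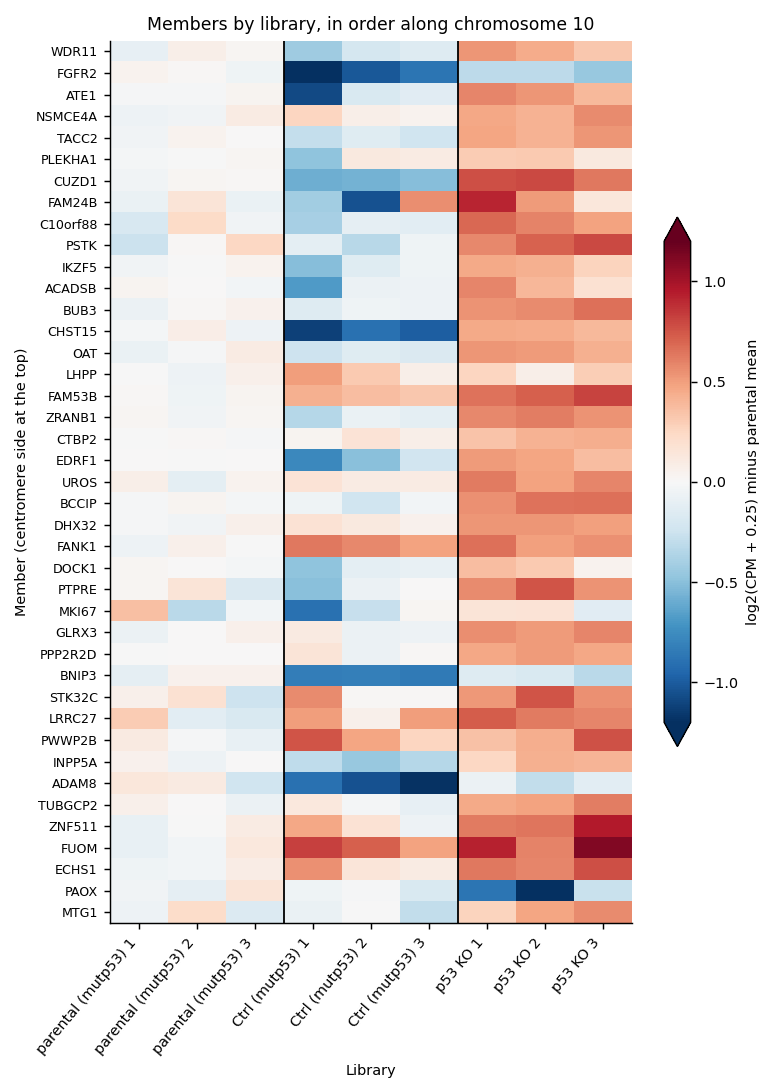
Level of the 41 tested members (rows, in order along chromosome 10) in the 9 libraries (columns), as log2(CPM + 0.25) minus the mean of the 3 parental libraries, with red for higher and blue for lower. The p53 KO columns are red in most rows, while the rows of FGFR2, BNIP3 and ADAM8 are bluest in Ctrl cells and that of PAOX in p53 KO cells.

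The spread among members was wider at low levels. Against parental cells the 14 members with a mean of at least 50 CPM had log2 fold changes from 0.04 to 0.67 (median 0.52, SD 0.16). The 22 members of 5 to 50 CPM ran from -0.36 to 0.92 (median 0.47, SD 0.31). The 5 members under 5 CPM ran from -0.87 to 0.82 (SD 0.73). The lowest value among abundant members was that of MKI67.

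The shift was not limited to the distal end of the long arm. The 387 tested genes of the long arm before WDR11 had a median of 0.45 on the log2 scale against parental cells (1.36-fold), with 225 called higher and 2 lower. Against Ctrl cells their median was 0.52, with 252 higher and 8 lower. In windows of 10 Mb the median against parental cells lay between 0.38 and 0.54 in each of the 10 windows from 40 to 140 Mb. It was 0.48 from 120 to 130 Mb and 0.54 from 130 to 140 Mb, which hold the members, and also 0.54 from 100 to 110 Mb. The label of a distal module thus described a portion of a shift that reached along the whole tested long arm, and the members are called here by their position. No test of the members against the rest of the long arm was made.

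The short arm moved the other way. Its 141 tested genes had a median of -0.34 against parental cells, with 63 called lower and 12 higher, and of -0.31 against Ctrl cells, with 62 lower and 9 higher. In windows of 10 Mb the median against parental cells was -0.44 from 30 to 40 Mb and 0.43 from 40 to 50 Mb. The arms were divided at 40 Mb, a fixed setting, and no turning point was sought. The last tested gene before this boundary, RP11-291L22.9, ends at base 38417204, and the first after it, LINC00839, starts at base 42475480. These genes lie on either side of the centromere. Genes of the other chromosomes had a median of 0.00 against parental cells over 13814 genes. Between Ctrl and parental cells the medians were -0.14 in the members, -0.05 in the long arm before WDR11 and -0.03 in the short arm.

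**Figure D2:**
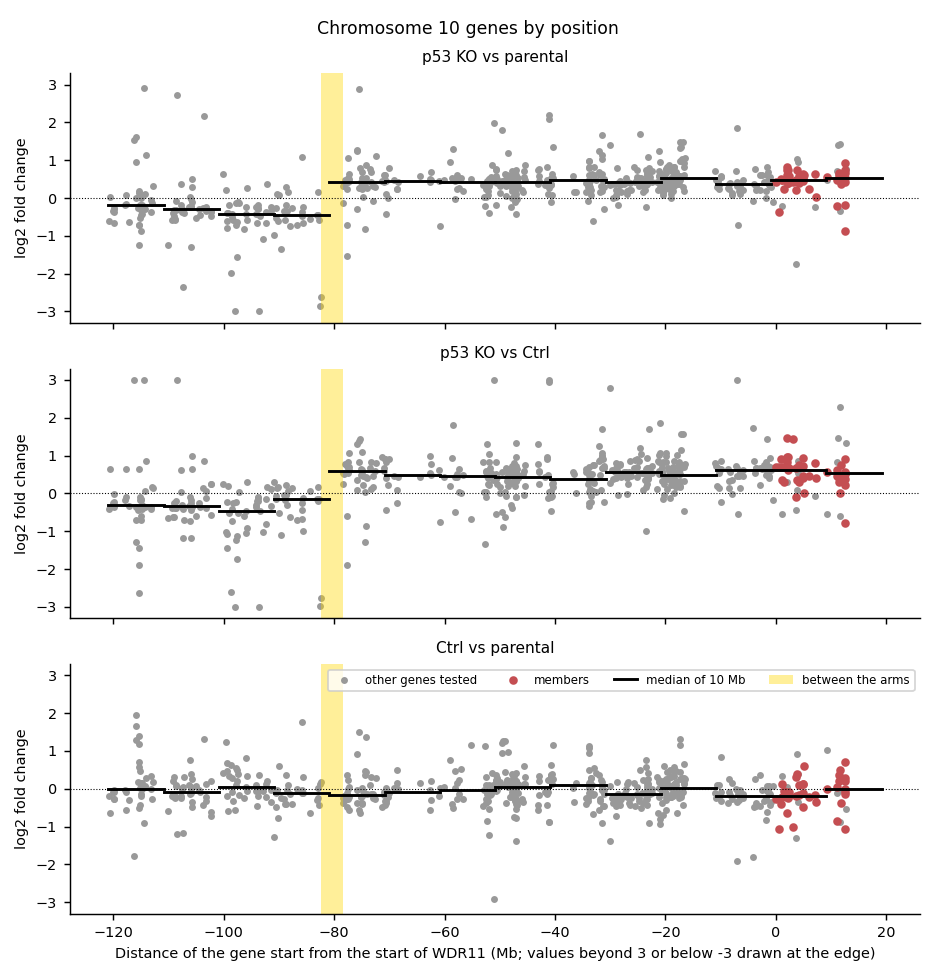
Log2 fold change of each tested chromosome 10 gene (point) against the distance of its start from that of WDR11 in Mb, for the 3 comparisons, with members in red, the median of each 10 Mb as a black line and the gap between the arms in yellow. In both comparisons of p53 KO cells the line steps from below 0 to above 0 at a fixed window edge within the gap. The line then stays level up to the members. In Ctrl against parental cells the line stays near 0.

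Each p53 KO library showed the shift. The median over the members of log2(CPM + 0.25) minus the parental mean was 0.53, 0.49 and 0.49 in the p53 KO libraries, -0.16, -0.07 and -0.06 in the Ctrl libraries and from -0.02 to 0.00 in the parental libraries. The long arm before WDR11 gave 0.41 to 0.46 in the p53 KO libraries, and the short arm -0.32 to -0.27. The p53 KO libraries did not overlap the other libraries in any of these 3 sets.

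**Figure D3:**
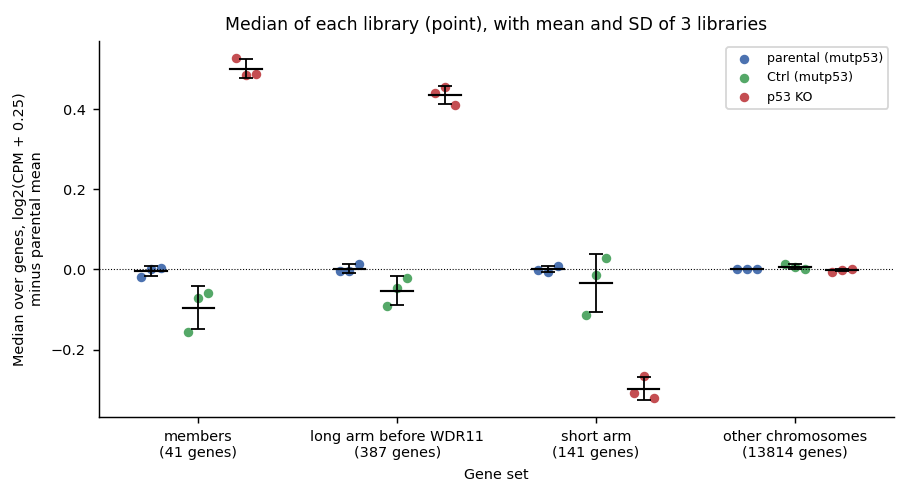
Median over the genes of each set of log2(CPM + 0.25) minus the parental mean (y axis) in each library (point), with the mean (line) and SD (bar) of the 3 libraries of a group. The p53 KO libraries lie near 0.50 for the members and near 0.44 for the rest of the long arm, below 0 for the short arm and at 0 for other chromosomes.

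Receptors and other signalling members were mixed. Of 8, 4 were called higher against parental cells and 1, FGFR2, lower, and 5 were called higher against Ctrl cells. Among all genes tested 9.77% were called higher and 8.36% lower against parental cells, and 15% and 14.2% against Ctrl cells. These shares stand beside every count by role here and below. The members were chosen on these contrasts, so nothing is read from the counts about a role. FGFR2 had 24.8, 24.4 and 23.2 CPM in parental, 9.79, 11.8 and 13 in Ctrl and 19.4, 19.4 and 17.6 in p53 KO libraries. The 3 groups did not overlap, and p53 KO cells lay between parental and Ctrl cells. The log2 fold change of FGFR2, given with its standard error as are those that follow, was -0.36 ± 0.10 against parental cells and 0.70 ± 0.11 against Ctrl cells. Where 2 values follow each other, the first is against parental and the second against Ctrl cells. INPP5A, a phosphatase that ends inositol trisphosphate signals, had 35.6, 32.9 and 34.3 CPM in parental, 27.6, 24.8 and 27.0 in Ctrl and 40.8, 46.2 and 45.5 in p53 KO libraries. The p53 KO libraries were the highest 3 and the Ctrl libraries the lowest 3, with log2 fold changes of 0.37 ± 0.08 and 0.74 ± 0.08. PTPRE, a receptor-type tyrosine phosphatase, was higher by 0.63 ± 0.14 and 0.80 ± 0.14. PPP2R2D, a regulatory subunit of protein phosphatase 2A (PP2A), was higher by 0.48 ± 0.07 and 0.45 ± 0.07. STK32C, a kinase of little known function, had values of 0.62 ± 0.17 and 0.42 ± 0.17, the latter not called. DOCK1, an exchange factor for Rac that takes part in engulfment of dying cells and in migration, had 0.25 ± 0.11 against parental cells, not called, and was higher by 0.47 ± 0.11 against Ctrl cells. PLEKHA1, an adaptor that binds phosphoinositides, had 0.25 ± 0.14 and 0.31 ± 0.14, and LHPP, a histidine phosphatase, 0.21 ± 0.12 and -0.09 ± 0.12, with no call in either.

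Among 7 proteases and other secreted or surface members only ADAM8, CUZD1 and CHST15 were tested, and all 3 were lowest in Ctrl cells. ADAM8 had 20.9, 20.4 and 16.0 CPM in parental, 10.1, 9.06 and 8.20 in Ctrl and 18.1, 15.4 and 17.3 in p53 KO libraries. Parental and p53 KO libraries overlapped, and both lay above Ctrl. CHST15, which adds sulphate to chondroitin chains, had 28.7, 30.7 and 27.8 CPM in parental, 13.2, 15.5 and 14.5 in Ctrl and 39.95, 39.6 and 38.2 in p53 KO libraries. Its 3 groups did not overlap, and p53 KO cells exceeded parental cells by 0.43 ± 0.08 and Ctrl cells by 1.44 ± 0.09 on the log2 scale. CUZD1, a protein with CUB and zona pellucida domains, was of low level, with 1.68, 1.77 and 1.75 CPM in parental, 1.07, 1.09 and 1.14 in Ctrl and 3.15, 3.19 and 2.83 in p53 KO libraries. It was higher in p53 KO cells by 0.82 ± 0.14 and 1.47 ± 0.15, again with no overlap.

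Of the 5 tested mitotic and cytoskeletal members 4 were called higher in p53 KO cells against both parental and Ctrl cells, and MKI67 was not. BUB3 had 169, 179 and 184 CPM in parental, 159, 171 and 170.1 in Ctrl and 258, 263 and 281 in p53 KO libraries. All p53 KO libraries lay above the others, and the log2 fold change was 0.59 ± 0.07 and 0.68 ± 0.07 against parental and Ctrl cells. BCCIP, a partner of BRCA2 and of the inhibitor p21, had values of 0.62 ± 0.07 and 0.73 ± 0.07, the spindle protein TACC2 of 0.48 ± 0.07 and 0.70 ± 0.07, and TUBGCP2, a subunit of the gamma-tubulin ring, of 0.52 ± 0.08 and 0.52 ± 0.08, and all were called higher. MKI67 had 1343, 831 and 1017 CPM in parental, 562, 862 and 1057 in Ctrl and 1159, 1169 and 947 in p53 KO libraries. The groups overlapped, and p53 KO cells differed by 0.04 ± 0.22 from parental and by 0.40 ± 0.22 from Ctrl cells on the log2 scale, with no call. Ctrl replicate 1 and p53 KO replicate 3, the libraries that stood apart, were the lowest of their groups for MKI67. The exons of this gene cover 12845 bases. Without both libraries the values were 0.13 against parental and 0.28 against Ctrl cells. Against Ctrl cells the value was 0.19 without Ctrl replicate 1 alone, 0.43 without Ctrl replicate 2 and 0.61 without Ctrl replicate 3. Against parental cells it was 0.24 without parental replicate 1 and -0.12 without parental replicate 2. A link between exon length and these values was not tested.

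The 7 tested members of DNA repair and transcription had log2 fold changes from 0.39 to 0.75 against parental cells, with 7 called. CTBP2, a co-repressor of transcription, had 103, 104 and 102 CPM in parental, 106, 116 and 109 in Ctrl and 131, 138 and 139.7 in p53 KO libraries. The p53 KO libraries lay above the others, with log2 fold changes of 0.40 ± 0.07 and 0.31 ± 0.07. ZNF511, a zinc finger protein, had 17.2, 18.2 and 19.6 CPM in parental, 25.3, 20.6 and 17.5 in Ctrl and 28.3, 28.7 and 35.7 in p53 KO libraries. It was higher by 0.75 ± 0.14 and 0.55 ± 0.14, without overlap. NSMCE4A, a subunit of the SMC complex of recombination repair, was higher by 0.49 ± 0.09 and 0.36 ± 0.09. ZRANB1, a deubiquitinase, was higher by 0.58 ± 0.08 and 0.75 ± 0.08, the zinc finger protein IKZF5 by 0.39 ± 0.11 and 0.61 ± 0.11, and EDRF1, a factor of erythroid development, by 0.46 ± 0.12 and 0.94 ± 0.12. PWWP2B, a chromatin reader, was higher by 0.53 ± 0.14 against parental cells, but had 0.02 ± 0.14 against Ctrl cells, since Ctrl libraries (23.7 to 33.6 CPM) and p53 KO libraries (25.4 to 33.8 CPM) overlapped.

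Of the 10 members of metabolism and mitochondria 7 were called higher against parental cells and PAOX lower, and 8 were higher against Ctrl cells, with PAOX again lower. OAT, a mitochondrial enzyme of ornithine breakdown, had 134, 139.9 and 152 CPM in parental, 119, 128 and 125 in Ctrl and 205, 202 and 191 in p53 KO libraries. It was higher by 0.49 ± 0.07 and 0.68 ± 0.07, without overlap. ECHS1, the enoyl-CoA hydratase of fatty acid oxidation, had 109.6, 111 and 121 CPM in parental, 167, 126 and 122 in Ctrl and 177, 170.5 and 195 in p53 KO libraries. The first Ctrl library came close to the p53 KO libraries, and the log2 fold change was 0.67 ± 0.11 and 0.39 ± 0.11. FUOM, which acts on the sugar fucose, had 4.82, 5.00 and 5.63 CPM in parental, 9.28, 8.61 and 7.28 in Ctrl and 9.96, 7.87 and 11.4 in p53 KO libraries. The value against parental cells, 0.92 ± 0.15, was the highest of the members, whereas Ctrl and p53 KO libraries overlapped (0.22 ± 0.14).

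PSTK, a kinase needed to make the transfer RNA of selenocysteine, had 1.45, 1.81 and 2.17 CPM in parental, 1.63, 1.37 and 1.72 in Ctrl and 2.78, 3.08 and 3.27 in p53 KO libraries, and was higher by 0.75 ± 0.17 and 0.95 ± 0.18. MTG1, a GTPase of mitochondrial ribosome assembly, had 8.19, 10.0 and 7.61 CPM in parental, 8.06, 8.54 and 6.90 in Ctrl and 10.3, 12.0 and 12.8 in p53 KO libraries. All p53 KO libraries lay above the others, though by little, with log2 fold changes of 0.44 ± 0.13 and 0.58 ± 0.13. GLRX3, a glutaredoxin of iron-sulphur cluster transfer, was higher by 0.55 ± 0.07 and 0.56 ± 0.07, and UROS, an enzyme of haem synthesis, by 0.57 ± 0.08 and 0.45 ± 0.08. ACADSB, a dehydrogenase of branched-chain acids, had 0.40 ± 0.15 against parental cells, not called, and was higher by 0.64 ± 0.15 against Ctrl cells.

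BNIP3 and PAOX had the lowest log2 fold changes of the metabolic members against parental cells. BNIP3 had 27.9, 31.1 and 31.2 CPM in parental, 16.8, 16.9 and 16.6 in Ctrl and 26.9, 26.4 and 23.9 in p53 KO libraries. As with FGFR2, p53 KO cells lay between parental and Ctrl cells with no overlap, and the log2 fold change was -0.22 ± 0.08 against parental cells, not called, and 0.62 ± 0.08 against Ctrl cells. PAOX, an oxidase of acetylated polyamines, had 2.72, 2.58 and 3.14 CPM in parental, 2.70, 2.77 and 2.44 in Ctrl and 1.41, 1.03 and 2.28 in p53 KO libraries. It was lower in p53 KO cells by the log2 fold changes -0.87 ± 0.24 and -0.79 ± 0.24, with p53 KO replicate 3 close to the lowest Ctrl library.

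**Figure D4:**
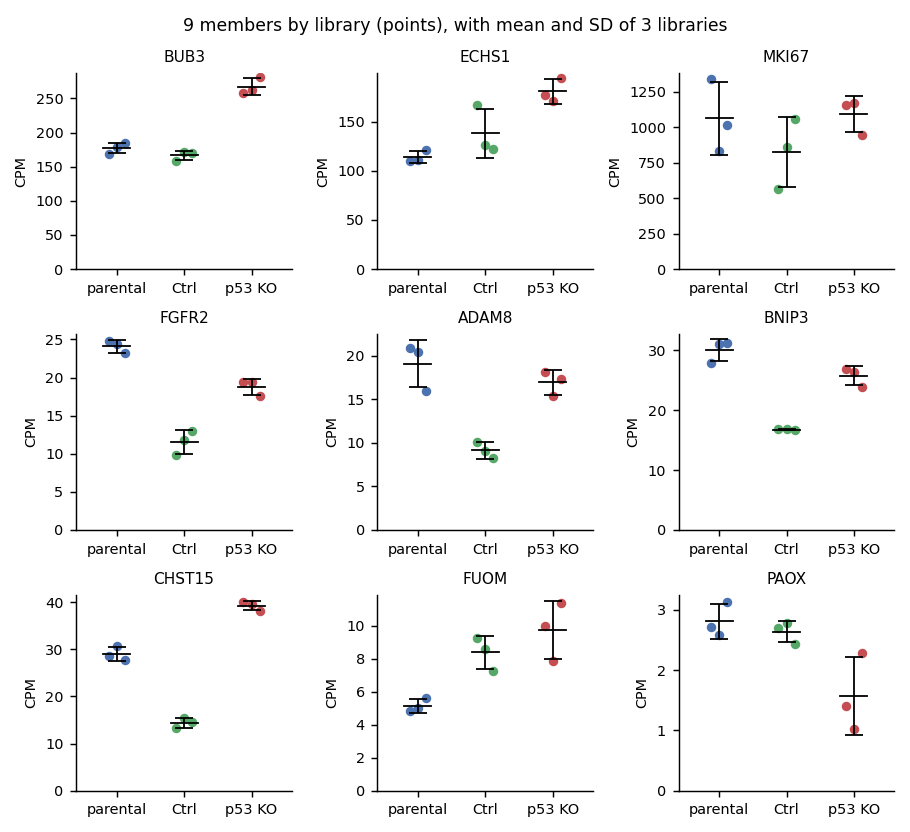
CPM of 9 members in each library (points) of the parental, Ctrl and p53 KO groups, with the mean (line) and SD (bar) of 3 libraries and y axes from 0. BUB3, ECHS1 and CHST15 are highest in p53 KO cells, MKI67 overlaps between groups, FGFR2, ADAM8 and BNIP3 are lowest in Ctrl cells, FUOM is lowest in parental cells and PAOX in p53 KO cells.

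Of the 8 members of other or less known roles, 6 were called higher against parental cells and 5 against Ctrl cells, and none lower. WDR11, a scaffold of vesicle transport tied to hedgehog signals, had 48.7, 54.7 and 53.1 CPM in parental, 38.7, 45.0 and 46.9 in Ctrl and 75.5, 70.9 and 65.2 in p53 KO libraries. It was higher by 0.44 ± 0.09 and 0.70 ± 0.09, without overlap. FANK1, a protein with fibronectin and ankyrin repeats known from testis, had 3.75, 4.12 and 3.92 CPM in parental, 6.22, 5.97 and 5.60 in Ctrl and 6.34, 5.63 and 5.85 in p53 KO libraries. Ctrl and p53 KO cells overlapped (0.01 ± 0.10), and both lay above parental cells (0.60 ± 0.11 for p53 KO cells). FAM53B, a regulator of beta-catenin, was higher by 0.73 ± 0.07 and 0.35 ± 0.07. ATE1, which adds arginine to proteins, had 0.51 ± 0.19 against parental cells, not called, and was higher by 0.91 ± 0.19 against Ctrl cells. The helicase DHX32 was higher by 0.52 ± 0.07 and 0.40 ± 0.07 and C10orf88 by 0.60 ± 0.13 and 0.82 ± 0.14. LRRC27 had 0.67 ± 0.18, called, and 0.31 ± 0.17, not called. FAM24B, at 0.212 to 1.54 CPM, had 0.74 ± 0.44 and 0.95 ± 0.45 with no call. Its value against Ctrl cells was 1.88 without Ctrl replicate 3 and 0.49 without Ctrl replicate 2.

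Per length of exon, ECHS1, MKI67, BCCIP and OAT were the most abundant members, with 141, 84.99, 72.7 and 58.7 RPKM (CPM per kilobase of exon) in p53 KO cells against 89.1, 82.8, 47.2 and 41.9 in parental cells. FGFR2 had 0.998 RPKM in p53 KO and 1.28 in parental cells. LRRC27 was the lowest of the 41 tested members in both groups, with 0.410 and 0.257 RPKM.

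Ctrl and parental cells both carry mutant p53, and their comparison did not enter the choice of the members. Its parental and its Ctrl libraries both did, through the comparisons with p53 KO cells, so the calls and adjusted p-values that follow are not independent of that choice. Of the 41 members 4 were higher in Ctrl cells, 7 were lower and 30 did not pass the test (edgeR's quasi-likelihood test, adjusted over all 14513 genes). Among all genes tested 10.6% were called higher and 9.69% lower, beside 4 of 41 members higher and 7 of 41 (17.1%) lower. As members were chosen for being higher than Ctrl cells, nothing is read from this difference. The median over the members was -0.14, against 0.00 for all genes.

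The members that fell most in Ctrl cells were ADAM8 (log2 fold change -1.07 ± 0.13, adjusted p = 0.000255), FGFR2 (-1.06 ± 0.11, adjusted p = 8.82e-05), CHST15 (-1.01 ± 0.09, adjusted p = 2.73e-05) and BNIP3 (-0.84 ± 0.08, adjusted p = 8.51e-05), by edgeR. In each, all 3 Ctrl libraries lay below all 3 parental libraries. CUZD1 (-0.65 ± 0.16, adjusted p = 0.0168), EDRF1 (-0.49 ± 0.12, adjusted p = 0.0173) and INPP5A (-0.37 ± 0.08, adjusted p = 0.0112) also fell. Members that rose were FUOM (0.70 ± 0.15, adjusted p = 0.0099), FANK1 (0.59 ± 0.11, adjusted p = 0.00394), PWWP2B (0.51 ± 0.14, adjusted p = 0.0303) and FAM53B (0.38 ± 0.07, adjusted p = 0.00563), by edgeR. Some of these calls were lost when 1 library was left out. FUOM (0.65) and INPP5A (-0.34) were not called without parental replicate 1, nor CUZD1 (-0.65 to -0.64) without parental replicate 2, parental replicate 3 or Ctrl replicate 2. EDRF1 (-0.49 to -0.48) and PWWP2B (0.46 to 0.56) were not called without any 1 of the parental libraries or without Ctrl replicate 2. The abundant BUB3, BCCIP, GLRX3 and TUBGCP2 had log2 fold changes between -0.10 and 0.00 that did not pass the test (adjusted p from 0.306 to 0.989, edgeR).

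**Figure D5:**
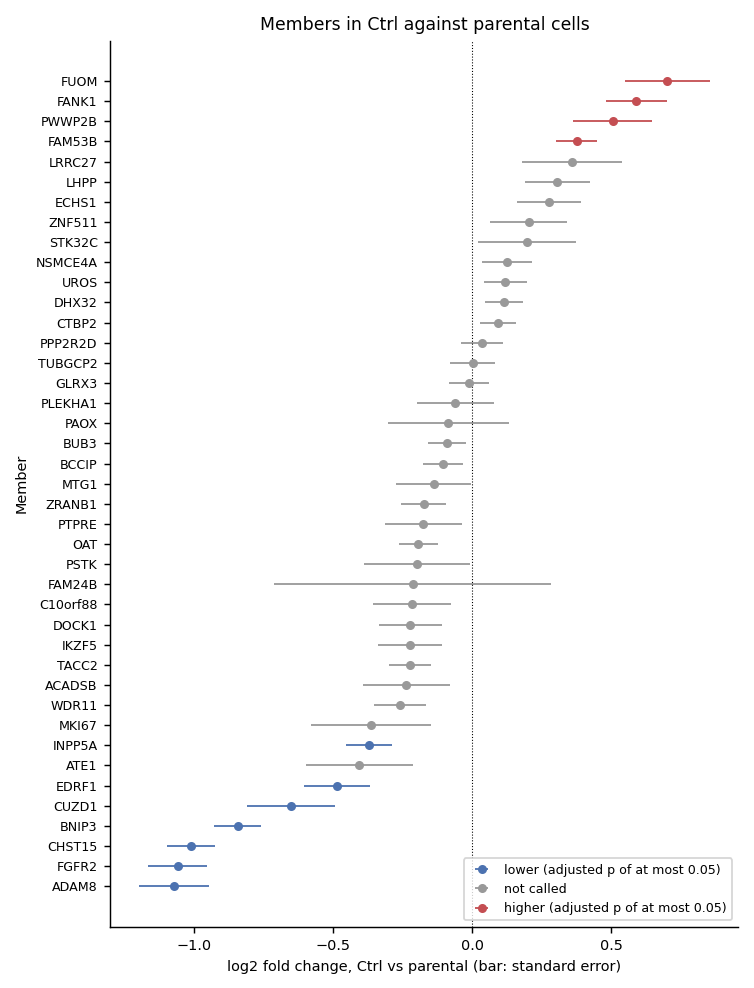
Log2 fold change of Ctrl against parental cells (x axis) with its standard error (bar) for each of the 41 tested members, ordered by value. Red points (4, from 0.38 to 0.70) and blue points (7, from -1.07 to -0.37) passed an adjusted p of 0.05, and the 30 grey ones did not.

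Relatives of the members, chosen for a shared complex, family or pathway, were examined next. Of 62 such genes 57 were tested, and 1 of them, CDK1, lies on chromosome 10. Against parental cells 6 were higher and 2 lower, and against Ctrl cells 12 were higher and 7 lower (edgeR), with medians of 0.08 and 0.06. Among all genes tested 9.77% were called higher and 8.36% lower against parental cells, and 15% higher and 14.2% lower against Ctrl cells, so 6 of 57 higher was close to the background. CDK1, the kinase of mitotic entry on the long arm, was higher than in parental cells by 0.47 ± 0.07 on the log2 scale (adjusted p = 0.00133, edgeR). Besides it, 1 of the 15 proliferation genes rose against parental cells, CCNA2 (0.26 ± 0.07), which encodes cyclin A2. None of the 5 relatives in repair and transcription was called in either comparison with p53 KO cells, and CTBP1, the paralogue of CTBP2, had -0.01 ± 0.08 against Ctrl cells. In the mitotic list DPYSL2 (1.11 ± 0.08) and TACC1 (0.63 ± 0.15) rose against parental cells, whereas the partners of BUB3 in the checkpoint did not pass the test against parental cells. Against Ctrl cells 1 of these partners, MAD1L1, was higher (0.35 ± 0.12). FGFR4 was lower against parental cells (-0.40 ± 0.12), as FGFR2 was, and PPP2R2A, a relative of PPP2R2D, was higher (0.50 ± 0.07). Its paralogue PPP2R2C was lower against parental (-0.25 ± 0.07) and higher against Ctrl cells (1.66 ± 0.08). DPYSL2, TACC1 and PPP2R2A, 3 of the 6 relatives higher against parental cells, lie on chromosome 8. So do PLEKHA2, ADAM9, NSMCE2 and BNIP3L, which were not called against parental cells. Against Ctrl cells PLEKHA2 (0.54 ± 0.14), ADAM9 (0.67 ± 0.14) and BNIP3L (0.37 ± 0.11) were called higher, and NSMCE2 (-0.0013 ± 0.09) was not. DPYSL2, TACC1 and PPP2R2A were called higher against Ctrl cells as well. The shared chromosome was picked out after the values were seen, and the other genes of chromosome 8 were not examined.

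At the edge of the window the genes outside resembled those inside. Before WDR11 the tested genes were INPP5F (0.49 ± 0.15 against parental cells), MCMBP (0.55 ± 0.07), SEC23IP (0.29 ± 0.12) and the pseudogene RP11-572P18.1 (-0.12 ± 0.22). Just inside, WDR11 had 0.44 and FGFR2 -0.36. At the far edge MTG1 had 0.44 and SCART1, the 1 tested gene beyond it, 0.78 ± 0.17. A further 13 tested genes between WDR11 and MTG1 were not on the list. Of these 6 were called higher and 1 lower against parental cells. METTL10 (0.42 ± 0.09) and FAM175B (0.50 ± 0.10) were the 2 with a mean of at least 5 CPM, and NKX1-2, a homeobox gene of 0.671 to 3.18 CPM, was lower (-1.74 ± 0.22).

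The 8 members that were not tested had few or no reads. MGMT, EBF3 and DPYSL4 had 0 counts in all 9 libraries, which allows up to the floor of 3 counts per library. The secreted protease HTRA1 had 0, 1 and 0 counts in parental, 0, 0 and 0 in Ctrl and 1, 0 and 1 in p53 KO libraries. ADAM12 had at most 4 counts in any library. DMBT1, a secreted scavenger protein of epithelia, had 1, 2 and 1 counts in parental, 6, 10 and 15 in Ctrl and 10, 6 and 9 in p53 KO libraries. CPXM2 had 0 counts in the 6 parental and Ctrl libraries and 5, 2 and 1 in p53 KO libraries, and JAKMIP3 had at most 3 counts in those 6 and 8, 7 and 2 in p53 KO libraries. At this depth no difference was judged for these genes.

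Some members overlap a neighbour on the opposite strand, so that their reads could not be assigned with certainty: PSTK with IKZF5, ZRANB1 with CTBP2, BCCIP with DHX32, and TUBGCP2 with ZNF511. The libraries were strand specific, but the strand setting of the counting is not given in the sources used here.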

How the data were processed

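Polyadenylated RNA of A431 cells (200 ng, 14 amplification cycles, strand-specific kit) was sequenced in 9 libraries. The deposited table holds raw counts per gene that the authors made with STAR 2.5.1b on GRCh38 and featureCounts with an Ensembl annotation. The strand setting is not given in the sources used here. Symbols came from the row names. Positions came from GENCODE 44 (GRCh38).

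Genes passing filterByExpr (minimum count 10) were fitted with edgeR 4.0.16 (TMM, quasi-likelihood test, 3 group means, Benjamini-Hochberg adjustment), in R 4.3.3, and called at an adjusted p of at most 0.05. The script was tested on simulated data. CPM used TMM effective library sizes, and values per library are relative to the parental mean after adding 0.25. Alternatives included DESeq2 1.42.0.

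The members, lists and tests were chosen with earlier results of these data known. Values are given in full for 13 members fixed by role, for the 4 highest and the 4 lowest against parental cells and for the 5 with the smallest adjusted p in Ctrl against parental cells. The level of the targeted gene is not reported here.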

Additional observations from a re-analysis of the deposited data

Results flagged for a closer look

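Of the 41 tested members 4 were called in opposite directions against parental cells in p53 KO and in Ctrl cells (edgeR). They were CUZD1, CHST15, EDRF1 and INPP5A, all higher in p53 KO and lower in Ctrl cells. The difference between the 2 effects equals the log2 fold change of p53 KO against Ctrl cells, which was 1.47 ± 0.15 for CUZD1, 1.44 ± 0.09 for CHST15, 0.94 ± 0.12 for EDRF1 and 0.74 ± 0.08 for INPP5A. As the p53 KO comparisons chose the members, their calls and these values are a description. The share of all genes tested with such opposite calls was not counted, so nothing is read from the number of members. The call in Ctrl against parental cells was lost for CUZD1 without parental replicate 2, parental replicate 3 or Ctrl replicate 2, for EDRF1 without any 1 of the parental libraries or without Ctrl replicate 2, and for INPP5A without parental replicate 1. In CHST15, CUZD1, EDRF1 and INPP5A all p53 KO libraries lay above all parental libraries, and all Ctrl libraries below.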

How the results depend on the processing

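The medians kept their sign under every alternative run, 1 of which was added after the data were seen. Leaving out 1 library at a time gave 23 to 35 members higher against parental cells, 30 to 32 higher against Ctrl cells and 8 to 14 changed between Ctrl and parental cells. The medians then ran from 0.49 to 0.52, from 0.53 to 0.61 and from -0.144 to -0.0784, and 29 to 30 members had all p53 KO libraries above the rest. Requiring a log2 fold change beyond 1.5 as well left 0, 0 and 0 members. Of all 14513 genes tested it left 179 higher against parental and 316 higher against Ctrl cells. Between Ctrl and parental cells it left 97 higher and 184 lower. With no filter on low counts the median against Ctrl cells was 0.62 over 46 genes. Without both Ctrl replicate 1 and p53 KO replicate 3, the added alternative, the median in Ctrl against parental cells was -0.09, and 34, 33 and 14 members were called in the 3 comparisons. DESeq2 called 30, 31 and 13. TMM factors computed without chromosome 10 called 30, 31 and 11. For single members in Ctrl against parental cells, 671 values kept their side of the threshold over the alternatives, 14 lost a call and 11 gained one. Of the p53 KO values of single members, 6 moved by more than the spread between replicates. FAM24B was at 1.88 against Ctrl cells without Ctrl replicate 3. PAOX was at -1.19 against parental and -1.10 against Ctrl cells without p53 KO replicate 3. Without both libraries that stood apart PAOX was at -1.19 against parental cells, BUB3 at 0.61 and PPP2R2D at 0.52 against Ctrl cells. The cause of these changes was not tested.

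The replicate numbers did not pair the libraries: correlations of the deviations of same-numbered libraries ran from -0.72 to 0.22 over 9 pairs. Over 18 differently numbered pairs they ran from -0.54 to 0.75. The highest were Ctrl replicate 1 with p53 KO replicate 3 (0.75), Ctrl 3 with p53 KO 2 (0.63) and Ctrl 2 with p53 KO 1 (0.56). A block by replicate number does not cover such pairs, and their cause was not tested. With the replicate number as a block 26, 31 and 10 members were called, the medians were 0.51, 0.58 and -0.14, and PWWP2B was no longer called in Ctrl against parental cells. The level of 3 counts, 0.101 to 0.153 CPM, limits what can be said of the 8 members that were not tested.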

Other observations

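Chromosome 10 also held 15 genes outside the list that were called past 1.5 on the log2 scale in the same direction against both parental and Ctrl cells. They were singled out after their values were seen. Of the 5 on the long arm that were higher, IFIT3, an interferon-induced gene, was the most abundant, with 128 to 141 CPM in parental, 126 to 134 in Ctrl and 411 to 441 in p53 KO libraries. RASGEF1A was the 1 long arm gene that was lower, with 4.71 to 5.55 CPM in parental, 5.22 to 8.21 in Ctrl and 1.44 to 2.05 in p53 KO libraries. On the short arm 6 were lower, as the arm was, and 3 were higher. CAMK1D, a calcium-dependent kinase, was among the higher ones, with 9 to 20 counts in parental, 4 to 8 in Ctrl and 89 to 117 in p53 KO libraries. ARMC3 had 9 to 14 counts in parental, 7 to 9 in Ctrl and 0 in all 3 p53 KO libraries. LRRC37A6P had 6 to 11, 5 to 15 and 0 counts.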
